A study of Mus musculus with 17 samples.

Results

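The Toll-like receptor genes were followed through 17 RNA-seq libraries of mouse bone marrow cultures. The 10 members are Tlr1 to Tlr9 and Tlr13, chosen by gene symbol without regard to their level, and each symbol belonged to 1 of the 41388 gene identifiers in the count tables. Marrow cells cultured in M-CSF become bone marrow macrophages (BMMs), which RANKL drives towards osteoclasts, the cells that resorb bone. Bap1flox mice carry floxed alleles of Bap1, a nuclear deubiquitinase, without Cre. Bap1LysM mice carry the same floxed alleles together with Cre driven by the lysozyme M gene, Lyz2, which is active in macrophages, monocytes and neutrophils. There were 3 Bap1flox and 3 Bap1LysM libraries of BMMs without RANKL. There were 6 Bap1flox and 5 Bap1LysM libraries labelled OC, which are pre-osteoclasts (preOCs) given 100 ng/ml RANKL for 24 h, from male mice aged 20 weeks. The age and sex of the mice behind the BMM libraries are not given in the sources used here. The study describes its preOC samples as biologically independent. Whether this holds for the BMM libraries, or whether a BMM and a preOC library shared a mouse, is not given in the sources used here, so p-values that use the BMM libraries measure the spread between these samples, which may be technical.

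Toll-like receptors recognise microbial molecules and start the inflammatory response of macrophages. Tlr1, Tlr2, Tlr4, Tlr5 and Tlr6 sit on the cell surface, where Tlr2 pairs with Tlr1 or Tlr6 for bacterial lipopeptides, Tlr4 detects lipopolysaccharide and Tlr5 detects flagellin. Tlr3, Tlr7, Tlr8, Tlr9 and Tlr13 reside in endosomes and detect nucleic acids, which are double-stranded RNA for Tlr3, single-stranded RNA for Tlr7 and Tlr8, unmethylated CpG DNA for Tlr9 and bacterial ribosomal RNA for Tlr13. Most receptors signal through the adaptor Myd88 to NF-kB, and Toll-like receptor ligands are known to affect osteoclast formation differently in early and in committed precursors.

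Total counts ran from 37967542 to 61369441 per library. Bap1 stood at 58.7 to 88.0 CPM (counts scaled to a common library size by TMM factors over the 17 libraries) in all groups. Its log2 fold change between genotypes was -0.22 in preOCs (edgeR adjusted p = 0.18) and -0.11 in BMMs (adjusted p = 0.34), and a count per gene does not separate the deleted exons from the rest. Lyz2 was at 6517 to 22797 CPM in the Bap1flox libraries and at 12.7 to 41.4 CPM in the Bap1LysM libraries, except Bap1LysM BMM 1 with 9579 CPM and Bap1LysM preOC 1 with 6883 CPM. Cre sits in the Lyz2 gene of LysM-Cre mice. The study describes its Cre-carrying mice as heterozygous for Cre, which leaves an allele without it. How the high and the low Lyz2 levels relate to that genotype was not tested. Whether any Bap1LysM library, including these 2, carries the Bap1 deletion was not tested either. Bap1LysM BMM 1 and Bap1LysM preOC 1 stand apart from their groups in Lyz2. Receptor values that move most when one of them is left out are given both ways. A list of 10 osteoclast markers summed to 6064 to 16378 CPM in preOCs and to 241 to 386 CPM in BMMs, and 8 macrophage markers summed to 3626 to 5915 CPM and 8799 to 12104 CPM. The names under which the counts of replicates 1 to 3 and of replicates 4 to 6 were deposited have different forms, while the sample titles do not. Mitochondrial genes held 0.48% to 1.07% of counts in the first set and 2.36% to 5.26% in the second, which contains only preOCs, and preOC results are also given for each set. In preOCs of the first set this share was 0.481% to 1.019% in Bap1flox and 1.021% and 1.074% in Bap1LysM libraries. In the second set it was 2.364% to 3.639% and 3.383% to 5.264%. The part of this share in the receptor values was not tested.

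All 10 receptors passed the filter on low counts in every comparison. Tlr11 and Tlr12, the other mouse members, had 0 to 26 and 0 to 8 counts per library and were not tested. Levels were compared between receptors per kilobase of exon length, since Tlr6 has 2603 exon bases and Tlr4 has 5556. In Bap1flox BMMs Tlr13 was the highest, at 76.3 ± 1.04 CPM per kb (SD, n = 3). It was followed by Tlr8 at 51.2 ± 11 and Tlr7 at 50.7 ± 10.9 CPM per kb, whose libraries overlapped. Tlr2 came next with 27.4 ± 5.94 CPM per kb, and Tlr5 was the lowest with 2.84 ± 0.661 CPM per kb. Tlr1, Tlr4 and Tlr9 lay between 11.5 and 14.4 CPM per kb with overlapping neighbours, while Tlr6 was at 6.26 and Tlr3 at 3.81 CPM per kb. The endosomal receptors made up 75.4% ± 0.945 (SD, n = 3) of the summed level per kb.

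In Bap1LysM BMMs the endosomal receptors held 83.1% ± 4.64 (SD, n = 3) of the summed level per kb. Tlr13, Tlr8 and Tlr7, at 107, 93.8 and 84.8 CPM per kb, overlapped in their libraries and lay clear of Tlr2 at 24.8 CPM per kb. The order in Bap1flox preOCs began with Tlr13 at 32.9 ± 9.40 CPM per kb (SD, n = 6), Tlr2 at 22.3 ± 5.30 and Tlr7 at 13.9 ± 5.23, and every neighbour down to Tlr3 overlapped the next, with Tlr5 alone below the rest at 0.534 ± 0.153 CPM per kb. The order in Bap1LysM preOCs began with Tlr7 at 49.6 ± 18.1 CPM per kb (SD, n = 5), Tlr13 at 41.2 ± 19.1, Tlr8 at 37.1 ± 14.2 and Tlr2 at 36.7 ± 10.1, each overlapping the next. The receptors from Tlr4 to Tlr3 followed without a gap, from 11.9 down to 3.29 CPM per kb, and Tlr5 was again apart at 0.607 CPM per kb.

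**Figure D1:**
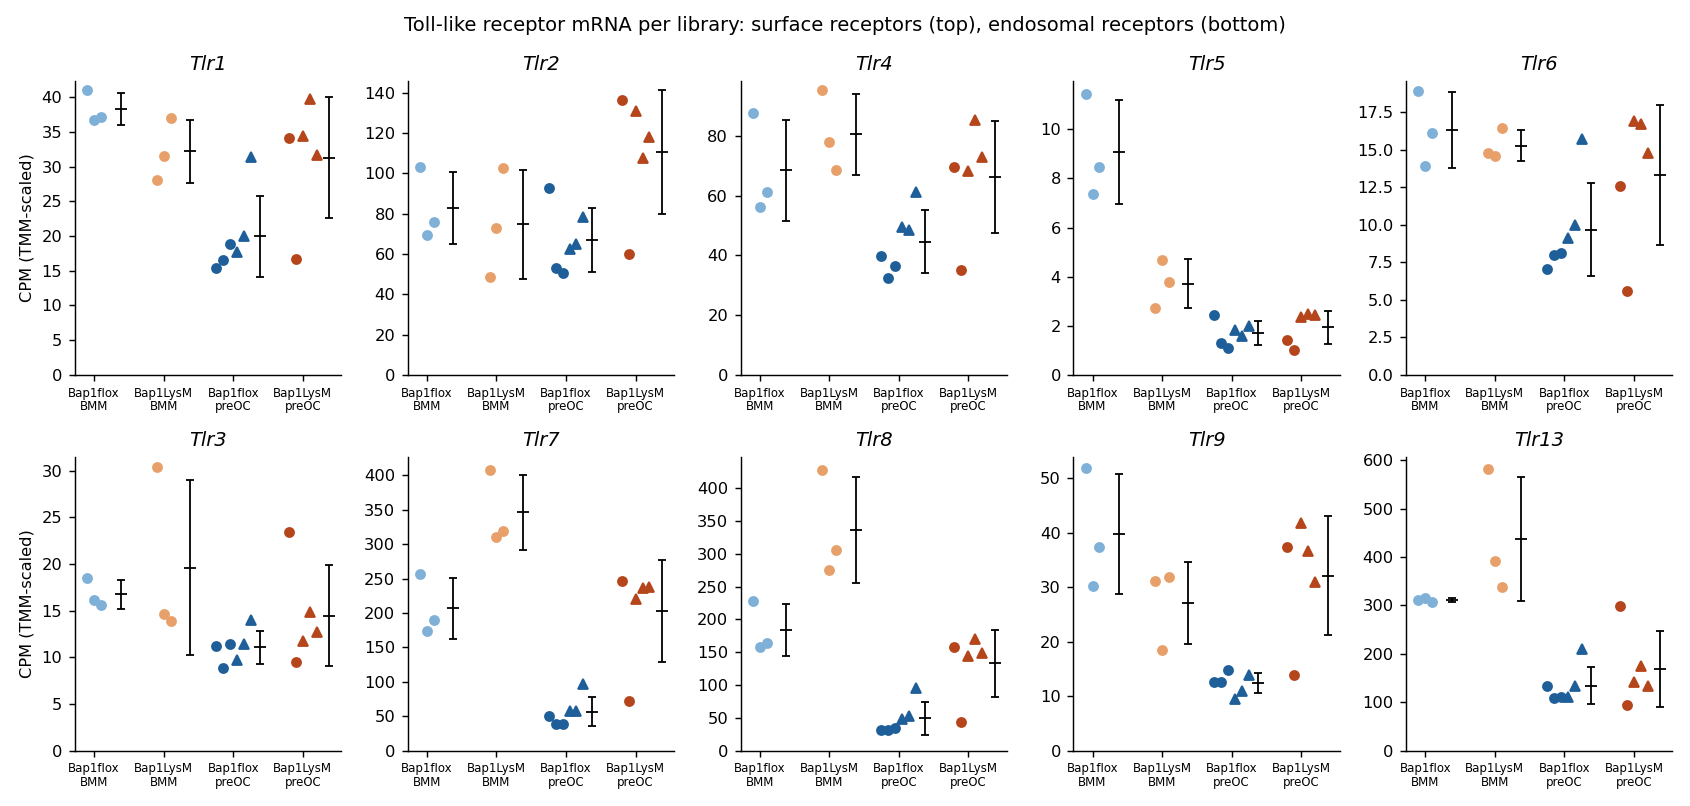
Level of each receptor in every library, in CPM scaled by TMM factors, by genotype and culture. Circles are replicates 1 to 3, triangles are replicates 4 to 6, and black bars are the mean ± SD. Tlr7 lay between 38.4 and 96.7 CPM in Bap1flox preOCs, and Bap1LysM preOC 2, at 71.6 CPM, is the single Bap1LysM preOC library inside that range.

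The summed level per kb of the 10 receptors was 257 ± 36.6 (SD, n = 3) in Bap1flox BMMs and 109 ± 29.2 (SD, n = 6) in Bap1flox preOCs. It was 356 ± 62.6 (SD, n = 3) in Bap1LysM BMMs and 207 ± 66.6 (SD, n = 5) in Bap1LysM preOCs. The share of each receptor in this sum was also read. Tlr7 made up 12.5% of the sum in Bap1flox preOCs, with a range of 11% to 14.4%, and 23.5% in Bap1LysM preOCs, with a range of 18.7% to 27.1%. Tlr13 made up 30.3% (27.0% to 32.0%) and 20.2% (15.2% to 27.1%), and Tlr2 20.9% (15.8% to 28.7%) and 18.2% (15.2% to 21.2%). The genotypes overlapped in both of these and not in Tlr7. They also did not overlap in Tlr5, which made up 0.499% (0.378% to 0.710%) and 0.304% (0.165% to 0.354%). The ratio of Tlr8 to Tlr7 per kb was 1.01 in Bap1flox BMMs and 1.10 in Bap1LysM BMMs. It was 0.963 in Bap1flox preOCs, with a range of 0.706 to 1.13, and 0.740 in Bap1LysM preOCs, with a range of 0.692 to 0.820 that overlaps it. These shares are a description and were not tested.

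**Figure D2:**
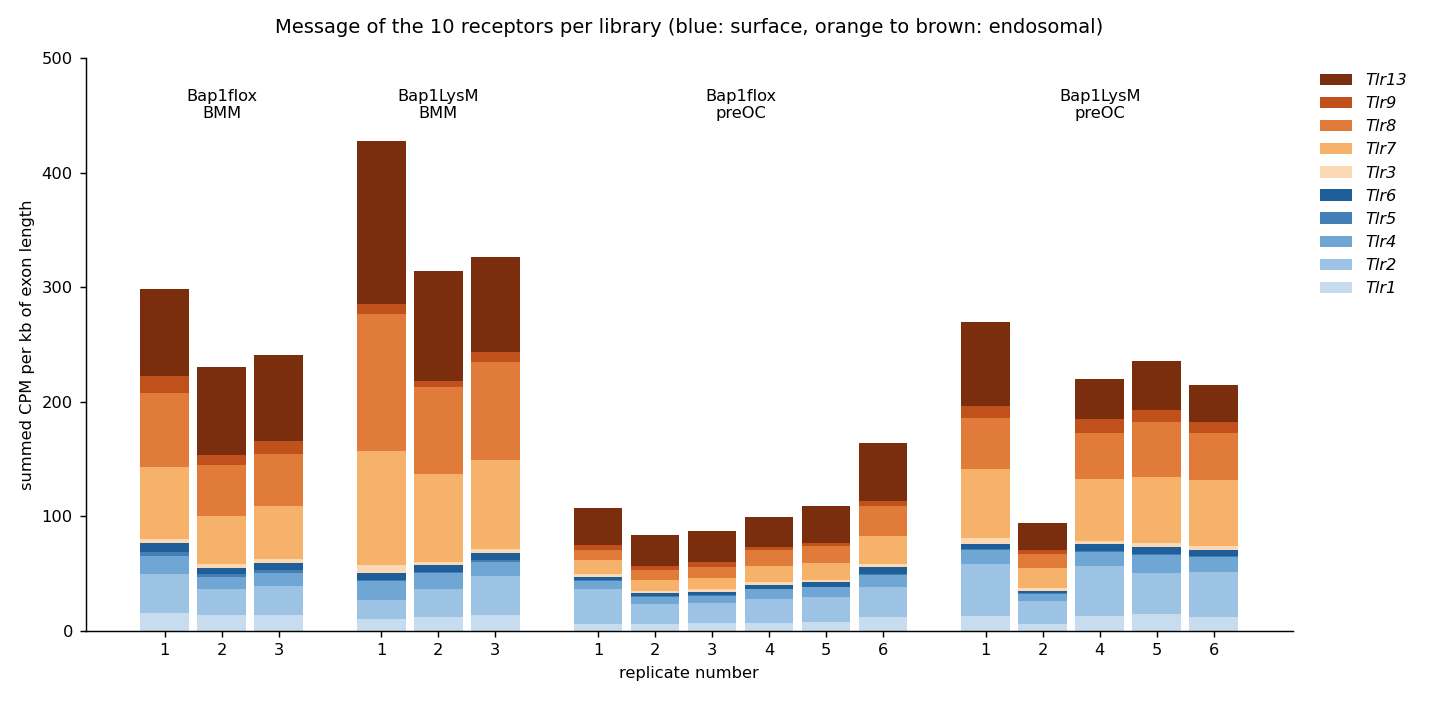
Composition of the receptor RNA in each library, as stacked levels in CPM per kb of exon, ordered by group. The mean Tlr7 share of the summed level is 12.5% in Bap1flox preOCs and 23.5% in Bap1LysM preOCs, and the mean Tlr13 share is 30.3% and 20.2%.

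The receptor genes lie at separate places in the GRCm38 assembly with 2 exceptions. Tlr7 (ENSMUSG00000044583, chrX:167304929-167330558, minus strand) and Tlr8 (ENSMUSG00000040522, chrX:167242696-167264329, minus strand) are neighbours, 40599 bases apart with no listed gene between them. Tlr1 (ENSMUSG00000044827, chr5:64924811-64932761, minus strand) and Tlr6 (ENSMUSG00000051498, chr5:64953106-64960048, minus strand) are 20344 bases apart, also with no gene between them. Tlr13 (ENSMUSG00000033777, chrX:106143204-106160493, plus strand) lies elsewhere on the X chromosome. The others are Tlr2 (ENSMUSG00000027995, chr3:83836273-83841767, minus strand), Tlr3 (ENSMUSG00000031639, chr8:45395665-45410608, minus strand), Tlr4 (ENSMUSG00000039005, chr4:66827584-66930284, plus strand), Tlr5 (ENSMUSG00000079164, chr1:182954788-182976044, plus strand) and Tlr9 (ENSMUSG00000045322, chr9:106222598-106226883, plus strand). No listed gene overlaps any of the 10, so strand does not change their counts. Of the 150-base windows in their transcripts, 139 of 3232 (4.3%) in Tlr1 and 139 of 3602 (3.86%) in Tlr6 are identical between these receptors. A read within them could be placed uniquely only by its mate, and the loss of reads there was not tested. The values of Tlr1 and Tlr6 may be uncertain for this reason, and the other members share no such window with any gene.

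The promoters of Tlr2, Tlr8 and Tlr9, which were higher in Bap1LysM preOCs, and of Tlr5, which was lower in Bap1LysM BMMs, are shown for their different make-up. They are the bases before the RefSeq start on GRCm38.p6, read 5′ to 3′ along the gene, and the Tlr2 window (chr3:83841768-83841858) is cut at the start of the Ensembl gene. The others are chrX:167264330-167264579 for Tlr8, chr9:106222348-106222597 for Tlr9 and chr1:182954538-182954787 for Tlr5. Capitals mark matches on either strand to 4 motifs, which are GAGGAA of PU.1 and other ETS factors, TGANTCA of AP-1, GAAANNGAA of interferon regulatory factors and the NF-kB consensus.
Tlr2: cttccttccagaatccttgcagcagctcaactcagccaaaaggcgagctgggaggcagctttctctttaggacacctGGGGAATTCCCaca
Tlr8: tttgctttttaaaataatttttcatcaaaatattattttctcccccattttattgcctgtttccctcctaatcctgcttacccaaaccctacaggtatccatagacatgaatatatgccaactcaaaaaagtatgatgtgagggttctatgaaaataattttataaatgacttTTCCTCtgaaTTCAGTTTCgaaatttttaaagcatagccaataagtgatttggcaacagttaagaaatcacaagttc
Tlr9: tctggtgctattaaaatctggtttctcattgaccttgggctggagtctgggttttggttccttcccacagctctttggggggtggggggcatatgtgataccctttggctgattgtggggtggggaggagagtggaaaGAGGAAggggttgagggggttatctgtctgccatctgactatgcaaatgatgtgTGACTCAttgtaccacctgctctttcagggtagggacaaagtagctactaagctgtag
Tlr5: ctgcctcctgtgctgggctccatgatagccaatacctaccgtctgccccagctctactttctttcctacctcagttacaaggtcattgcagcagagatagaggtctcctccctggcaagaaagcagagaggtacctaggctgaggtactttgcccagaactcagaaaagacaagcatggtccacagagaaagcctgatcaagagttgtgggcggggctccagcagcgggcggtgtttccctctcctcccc
Tlr2 holds overlapping NF-kB matches from 173 to 163 bases before the start. Tlr8 holds the ETS letters on the opposite strand at 77 to 72 bases and the interferon regulatory factor letters on the opposite strand at 67 to 59 bases before its start. Tlr9 holds the ETS letters at 112 to 107 bases and AP-1 letters at 58 to 52 bases, and Tlr5 holds none of the 4. RefSeq windows of 250 bases were found for 8 of the 10 members, not for Tlr4 or Tlr7, and some had more than 1 start. Among these 10 member windows GAGGAA occurred in 4, GAAANNGAA in 2, the NF-kB consensus in 2 and TGANTCA in 1. Among 32851 mouse promoters of the same length the shares were 23.3%, 7.13%, 3.9% and 6.75%. The G and C content of these 250-base windows was 62.8% for Tlr2, 55.2% for Tlr5, 50.4% for Tlr9 and 31.2% for Tlr8, against a median of 52.4% over all promoters. A match is a description of letters and not of a bound factor.

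The labelled genotypes were first compared in preOCs, the study's own comparison. Tlr7, Tlr8, Tlr9 and Tlr2 were higher in Bap1LysM preOCs than in Bap1flox preOCs, by 3.49-, 2.65-, 2.51- and 1.61-fold, and none of the receptors was lower. Of the 5 endosomal receptors 3 rose, and of the 5 surface receptors 1 rose. The endosomal share of the summed level per kb was 60.8% (56.0% to 66.2%) in Bap1flox and 67.2% (62.8% to 71.8%) in Bap1LysM preOCs. These ranges overlap, and a difference between the endosomal and the surface receptors was not tested. By the quasi-likelihood test of edgeR, with p adjusted after Benjamini and Hochberg over all genes, 4 of the 10 members were called higher, where 7.12% of 12919 genes tested were called higher and 15.8% were called in either direction. The median log2 fold change was 0.57 over the members and -0.01 over all genes.

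Tlr7, the sensor of single-stranded RNA, had 247, 71.6, 220.5, 237 and 237 CPM in Bap1LysM preOCs 1, 2, 4, 5 and 6. In the 6 Bap1flox preOCs its lowest, median and highest values were 38.4, 53.7 and 96.7 CPM. All Bap1LysM libraries but number 2 lay above every Bap1flox library, and number 2 lay inside their range. The log2 fold change was 1.80 (SE 0.31, edgeR adjusted p = 0.0034). Without Bap1LysM preOC 1 it was 1.71 (edgeR adjusted p = 0.0044), and Tlr7 remained called when any 1 of the 11 libraries was left out.

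Tlr8, the neighbour of Tlr7 on the X chromosome, followed the same libraries. It had 158, 43.5, 145, 171 and 148 CPM in Bap1LysM preOCs 1, 2, 4, 5 and 6, against a lowest, median and highest of 30.9, 41.7 and 95.7 CPM in Bap1flox preOCs. Only number 2 overlapped the Bap1flox range. The log2 fold change was 1.403 (SE 0.36, edgeR adjusted p = 0.022). The call was lost without Bap1LysM preOC 4 (edgeR adjusted p = 0.056) or 5 (adjusted p = 0.063), and kept in the other 9 of 11 such fits.

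Tlr9, the sensor of CpG DNA, had 37.3, 13.8, 41.8, 36.7 and 31.0 CPM in Bap1LysM preOCs and a lowest, median and highest of 9.54, 12.6 and 14.8 CPM in Bap1flox preOCs. The 4 Bap1LysM libraries other than number 2 were at least 31.0 CPM, above all Bap1flox values. The log2 fold change was 1.33 (SE 0.23, edgeR adjusted p = 0.0037), and the call held in all 11 fits that left out 1 library. Tlr9 and Tlr7 were called under 22 of 23 alternative settings each, and Tlr8 under 20.

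Tlr2, which binds bacterial lipopeptides, changed less. Its Bap1LysM preOCs had 136, 59.8, 131, 108 and 118 CPM and its Bap1flox preOCs a lowest, median and highest of 50.7, 63.8 and 92.7 CPM, with number 2 again inside the Bap1flox range. The log2 fold change was 0.69 (SE 0.21, edgeR adjusted p = 0.045). The call held in 3 of the 11 fits that left out 1 library, where the adjusted p ran from 0.0061 to 0.12. Without Bap1LysM preOC 1, the preOC library of its genotype with high Lyz2, the log2 fold changes were 1.32 for Tlr8 and 1.26 for Tlr9, both called, and 0.59 for Tlr2 (edgeR adjusted p = 0.071).

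Tlr1, a partner of Tlr2, and Tlr4, the lipopolysaccharide receptor, did not pass the test but had the same library pattern. Tlr1 had 34.1, 16.7, 34.4, 39.8 and 31.7 CPM in Bap1LysM preOCs and 15.5 to 31.4 CPM in Bap1flox preOCs (log2 fold change 0.61, SE 0.22, edgeR adjusted p = 0.085). Tlr4 had 69.4, 35.0, 68.4, 85.3 and 72.9 CPM and 32.4 to 61.2 CPM (log2 fold change 0.53, SE 0.21, edgeR adjusted p = 0.10). Both were above every Bap1flox library in 4 of the 5 Bap1LysM libraries, as were Tlr2, Tlr7, Tlr8 and Tlr9, and 12.6% of all genes had 4 or more of the 5 above. For Tlr1 the lowest of the 4 was at 31.7 CPM and the highest Bap1flox library at 31.4 CPM. No member separated the genotypes without overlap, which 4.09% of all genes did in this direction.

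Tlr3, Tlr5, Tlr6 and Tlr13 had log2 fold changes of 0.35 (SE 0.21), 0.15 (SE 0.28), 0.42 (SE 0.27) and 0.30 (SE 0.27), with edgeR adjusted p from 0.29 to 0.76. The intervals of 1.96 SE reached from -0.07 to 0.77 for Tlr3, from -0.40 to 0.69 for Tlr5, from -0.11 to 0.95 for Tlr6 and from -0.24 to 0.83 for Tlr13. Tlr13 had 299 CPM in Bap1LysM preOC 1 and 94.2 to 174 CPM in the other Bap1LysM preOCs, against 109 to 209 CPM in Bap1flox preOCs, and without that library its log2 fold change was -0.03. Tlr3 also had its highest preOC value, 23.5 CPM, in Bap1LysM preOC 1, and without it the log2 fold change was 0.09 (edgeR adjusted p = 0.66). Tlr6, the other partner of Tlr2, was above every Bap1flox library in 2 of the 5 Bap1LysM preOCs and below all of them in 1. Irf7, an interferon-inducible transcription factor named here after its values were seen, was at 1141 CPM in Bap1LysM preOC 1. It was at 34 to 453 CPM in the other preOCs. The part of the state of Bap1LysM preOC 1 in the level of Tlr3 or Tlr13 was not tested.

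**Figure D3:**
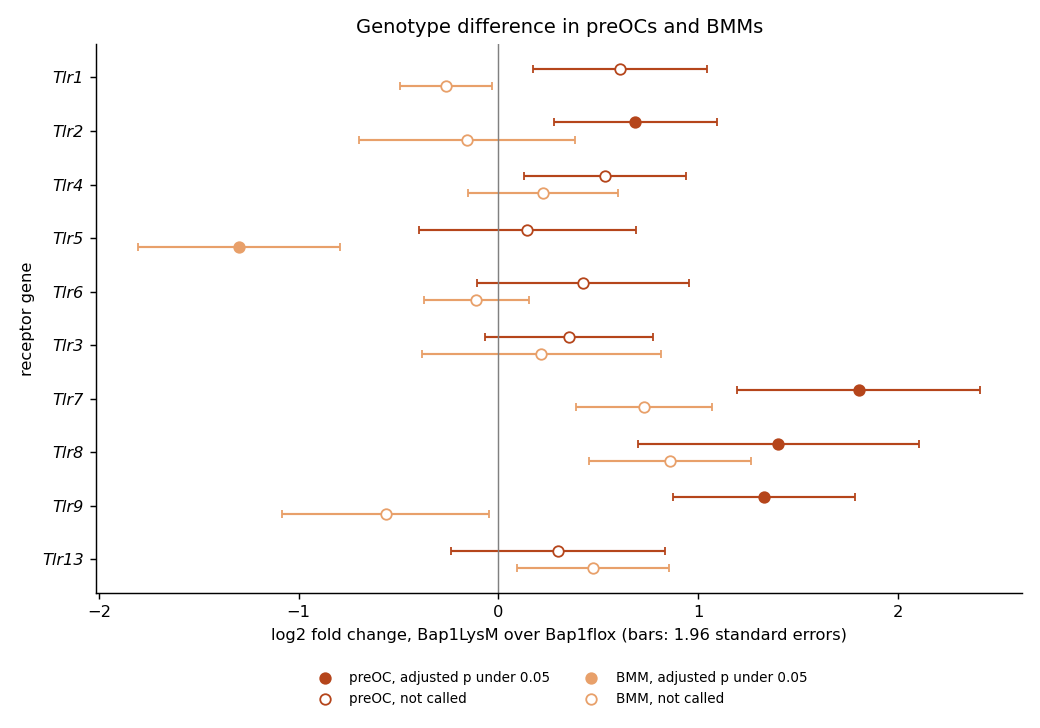
Log2 fold change of each receptor, Bap1LysM over Bap1flox, in preOCs and in BMMs with bars of 1.96 SE. Filled points have an edgeR adjusted p under 0.05, which are Tlr2, Tlr7, Tlr8 and Tlr9 in preOCs and Tlr5 in BMMs.

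Tlr7, Tlr8, Tlr9 and Tlr2 were estimated higher in both library sets, and were called in the second. In replicates 1 to 3, with 3 against 2 libraries, the log2 fold changes were 1.89 for Tlr7, 1.64 for Tlr8, 0.93 for Tlr9 and 0.58 for Tlr2, and no member was called (edgeR adjusted p = 0.19, 0.22, 0.31 and 0.51). No gene of 13120 was called there, and 8.48% were higher at an unadjusted p under 0.05. In replicates 4 to 6, with 3 against 3 libraries, 5 members were called higher, where 15.3% of genes were. The log2 fold changes there were 1.67 for Tlr7, 1.63 for Tlr9, 1.18 for Tlr8, 0.75 for Tlr2 and 0.47 for Tlr4, and that of Tlr13 was -0.05. With the library set as a term 6 members were called higher, where 16.6% of genes were. With the replicate number as a block 33.2% of genes were called and Tlr4 was added (log2 fold change 0.46, edgeR adjusted p = 0.022).

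Bap1LysM preOC 2 was the lowest Bap1LysM preOC for each of the 10 receptors. Its osteoclast markers summed to 16378 CPM, the highest of all preOCs, and its macrophage markers to 3749 CPM, the lowest Bap1LysM value. Without this library 6 members were called, with log2 fold changes of 2.02 for Tlr7, 1.63 for Tlr8, 1.52 for Tlr9, 0.84 for Tlr2, 0.77 for Tlr1 and 0.69 for Tlr4 (edgeR adjusted p from 3.6e-04 to 0.014), where 10.2% of genes were called higher. Without both Bap1LysM preOC 1 and 2, a setting chosen after seeing the data, 7 were called higher, where 18.7% of genes were.

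**Figure D4:**
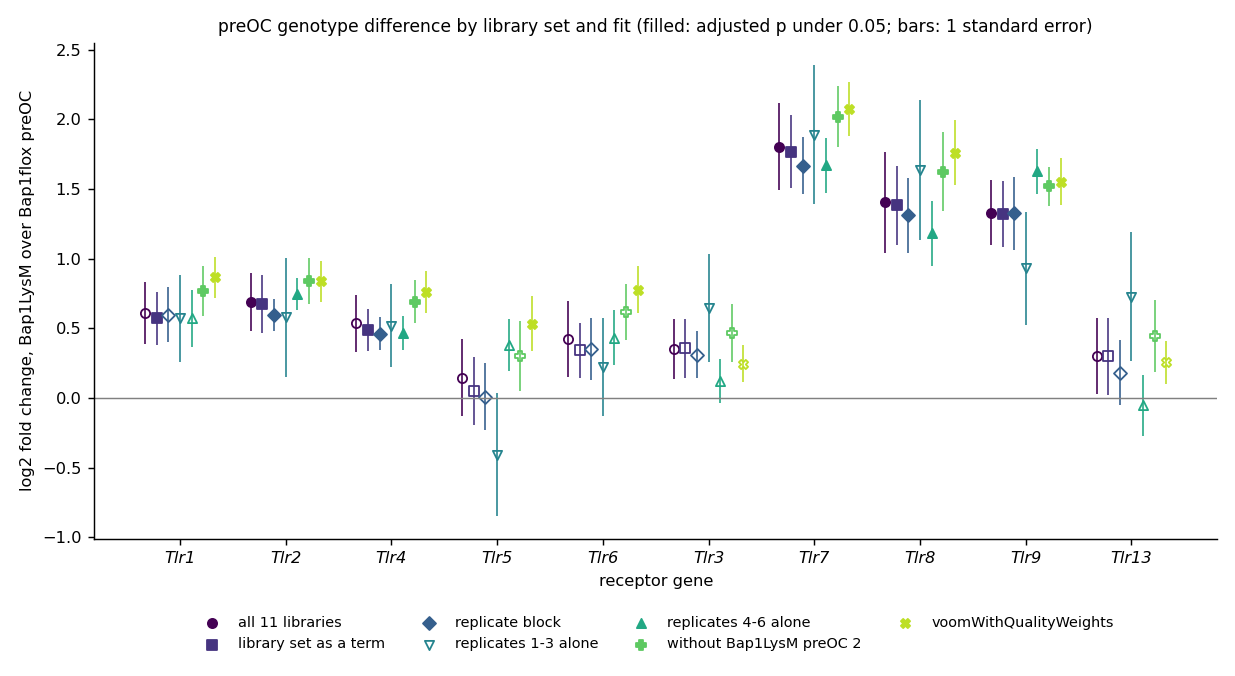
Log2 fold change of each receptor in preOCs, Bap1LysM over Bap1flox, in 7 fits that differ in libraries, covariates or tool, with bars of 1 SE and filled points for an adjusted p under 0.05. Tlr7 stands at 1.80 in all libraries, 1.89 in replicates 1 to 3 and 1.67 in replicates 4 to 6, while Tlr13 stands at 0.73 in the first set and -0.05 in the second and Tlr5 at -0.41 and 0.38.

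Markers of other cells were measured beside the receptors, since in bulk RNA fewer cells of a type and less RNA per cell cannot be told apart. Of 8 neutrophil markers tested 6 were higher in Bap1LysM preOCs, among them S100a8 (log2 fold change 1.498), Ltf (1.54) and Mpo (1.52). Their list of 9 summed to 61.6 to 181 CPM in Bap1flox and 170.4 to 617 CPM in Bap1LysM preOCs, while Ly6g, which defines mature neutrophils, had 0 to 12 and 4 to 18 counts. Of 5 monocyte markers Ccr2 (1.56) and Ly6c2 (1.30) were higher, and the list summed to 17.2 to 50.7 CPM and 23.9 to 177 CPM. In Bap1LysM preOCs 1, 2, 4, 5 and 6 the monocyte list summed to 23.9, 50.5, 132, 108 and 177 CPM. Of 8 macrophage markers Csf1r (0.41) and Mertk (1.26) were higher, and the list summed to 3626 to 4820 CPM in Bap1flox and 3749 to 5915 CPM in Bap1LysM preOCs.

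Lymphoid and dendritic markers were read in the same way. Of 4 B and plasma cell markers tested Jchain (log2 fold change 4.01) and Ighm (1.34) were higher, with a summed level of the 10 markers of 10.6 to 21.3 CPM and 13.1 to 49.3 CPM. Of 3 conventional dendritic cell markers tested Ccr7 (2.07) and Zbtb46 (1.14) were higher, and the list of 7 summed to 41.3 to 179 CPM and 99.9 to 161 CPM. Plasmacytoid dendritic cells are known for high Tlr7 and Tlr9. Siglech, which marks them, had 2 to 20 counts in Bap1flox and 2 to 16 in Bap1LysM preOCs, and Klk1 was at 0 in all Bap1LysM preOCs. Of the 2 plasmacytoid markers tested Tcf4 fell by 0.67 on the log2 scale and Bst2 was at -0.06. The list of 7, which includes both, summed to 121 to 288 CPM in Bap1flox and 87.3 to 437.3 CPM in Bap1LysM preOCs. Of 10 osteoclast markers Dcstamp alone differed and was lower (-0.69). The part of these cell types in the receptor values was not tested for any of the lists.

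The genes around the receptors were taken from lists of the pathway. Of the 9 chaperones and processing enzymes, which include Unc93b1, the carrier of endosomal receptors, none rose in Bap1LysM preOCs. Cnpy4 (log2 fold change -0.49, SE 0.13) and Ctsl (-0.94, SE 0.26), a lysosomal protease, were lower by edgeR (adjusted p = 0.025 and 0.030), and Unc93b1 was at 0.47 (adjusted p = 0.058). The list's median was 0.25. Of 6 adaptors tested Tirap, which bridges Myd88 to surface receptors, fell by 0.81 on the log2 scale (SE 0.12, edgeR adjusted p = 0.0015), and Sarm1, an inhibitory adaptor, fell by 1.56 (SE 0.29, adjusted p = 0.0048). Sarm1 had low counts, 80 to 181 per library in Bap1flox and 15 to 49 in Bap1LysM preOCs. Myd88 itself was at -0.06 (edgeR adjusted p = 0.76). Among 6 co-receptors and ligand handlers Lbp, the lipopolysaccharide-binding protein, was higher (1.33, SE 0.37), and the list's median was -0.27. Lbp had 30 to 54 counts per library in Bap1flox and 26 to 152 in Bap1LysM preOCs.

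The signalling genes are read beside the 15.8% of all genes called in preOCs in either direction. Of 16 kinases and ubiquitin ligases Ikbke (log2 fold change 0.59) and Irak2 (0.26) were higher, with a list median of 0.23. Of 9 transcription factors Relb, an NF-kB subunit, was higher (0.67, SE 0.14, edgeR adjusted p = 0.0077), with a list median of 0.25. Of 10 negative regulators Zc3h12a (0.53) and Rnf216 (0.31) were higher and Sigirr (-0.79) was lower, with a list median of -0.0013. Among 16 target genes 10 could be tested, and Marco, a scavenger receptor, was the 1 called (2.26, SE 0.32, edgeR adjusted p = 0.0012), with a list median of 0.28. Tnf was at 0.51 (SE 0.43, adjusted p = 0.45).

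The genotypes were then compared in BMMs, before RANKL. Tlr5, the flagellin receptor, was lower in Bap1LysM BMMs and was the 1 member of 10 called by edgeR, where 4.01% of 13028 genes were called lower and 5.32% in either direction. It had 11.4, 7.35 and 8.47 CPM in Bap1flox BMMs 1, 2 and 3 and 2.70, 4.68 and 3.78 CPM in Bap1LysM BMMs. Every Bap1LysM value lay below every Bap1flox value. The log2 fold change was -1.30 (SE 0.26, edgeR adjusted p = 0.042), with counts of 110 to 594 per library. The call was lost when any 1 of the 6 libraries was left out (adjusted p from 0.071 to 0.14), with the log2 fold change between -1.49 and -1.11. Without Bap1LysM BMM 1, the BMM library of its genotype with high Lyz2, the adjusted p was 0.071.

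Tlr7, Tlr8 and Tlr13 lay higher in all 3 Bap1LysM BMMs without passing the test, where 17.2% of all genes separated in that direction and 16.8% in the other. Tlr7 had 257, 173 and 190.4 CPM in Bap1flox BMMs and 408, 311 and 319 CPM in Bap1LysM BMMs (log2 fold change 0.73, SE 0.17, edgeR adjusted p = 0.060). Tlr8 had 229, 158 and 164 CPM and 428, 275 and 306 CPM (0.86, SE 0.21, adjusted p = 0.061). With the replicate number as a block, where 16.2% of genes were called, Tlr7 (adjusted p = 0.010) and Tlr8 (adjusted p = 0.0092) passed. Tlr13 had 312, 316 and 308 CPM in Bap1flox and 583, 391 and 338 CPM in Bap1LysM BMMs (0.47, SE 0.19, edgeR adjusted p = 0.18). Without Bap1LysM BMM 1 the log2 fold changes were 0.59 for Tlr7 (edgeR adjusted p = 0.11), 0.65 for Tlr8 (0.10) and 0.21 for Tlr13 (0.22).

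Tlr9 did not share that direction. It had 51.9, 30.2 and 37.5 CPM in Bap1flox BMMs and 31.2, 18.5 and 31.9 CPM in Bap1LysM BMMs, and the groups overlapped (log2 fold change -0.56, SE 0.26, edgeR adjusted p = 0.23). With the replicate number as a block it was called lower (edgeR adjusted p = 0.033). Tlr1, Tlr2 and Tlr6 were at -0.26, -0.16 and -0.11, and Tlr3 and Tlr4 at 0.21 and 0.22, with edgeR adjusted p from 0.21 to 0.74. Without Bap1LysM BMM 1, Tlr3 was at -0.25 (edgeR adjusted p = 0.28) and Tlr2 at 0.07 (0.85). Tlr3 and Tlr13 were highest in that library, at 30.4 and 583 CPM, where Irf7 was at 1240.45 CPM against 251 to 475 CPM in the other BMMs. In the pathway lists Ticam2 (-0.80), the adaptor that links Tlr4 to Ticam1, Irak3 (-0.81) and Sigirr (-1.22), both negative regulators, were lower, and Traf3 (0.34) and Tnf (1.03) were higher, while no co-receptor, chaperone or transcription factor was called. The median log2 fold change was 0.05 over the members and -0.01 over all genes. Of the markers tested in BMMs, none of 5 monocyte or 8 neutrophil genes was called, where 5.32% of all genes were. Their lists summed to 606 to 788 CPM and 76.4 to 242 CPM in Bap1flox BMMs. In Bap1LysM BMMs they summed to 281 to 592 CPM and 216 to 311 CPM. Of 8 macrophage markers 1 was lower, and of 4 B and plasma cell markers 1 was higher and 1 lower. The part of these cells in the receptor values was not tested.

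The response to RANKL was read in replicates 1 to 3, where BMMs and preOCs both exist. In Bap1flox cultures 8 of the 10 receptors fell. By edgeR 58.1% of 13635 genes were called and 28.7% were called lower, so a changed gene was common in this comparison. Tlr8 fell from 229, 158 and 164 CPM in BMMs to 31.4, 30.9 and 34.4 CPM in preOCs (log2 fold change -2.51, SE 0.40, edgeR adjusted p = 4.9e-04). Tlr5 fell from 11.4, 7.35 and 8.47 CPM to 2.44, 1.32 and 1.07 CPM (-2.50, SE 0.34, adjusted p = 2.2e-04). Tlr7 fell from 257, 173 and 190.4 CPM to 50.5, 38.4 and 39.2 CPM (-2.27, SE 0.38, adjusted p = 6.4e-04). Each of these 3 receptors was lower in every preOC than in any BMM.

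Tlr9 went from 51.9, 30.2 and 37.5 CPM to 12.6, 12.6 and 14.8 CPM (log2 fold change -1.58, SE 0.35, edgeR adjusted p = 0.0036). Tlr13 (-1.40), Tlr1 (-1.17), Tlr6 (-1.07) and Tlr4 (-0.92) were also lower, with adjusted p from 0.0014 to 0.011. These 8 calls held under each of the 14 alternatives run. Tlr3 went from 15.6 to 18.5 CPM in BMMs to 8.83 to 11.4 CPM in preOCs without passing the test (-0.67, adjusted p = 0.13), and was called lower once replicate number entered as a block (adjusted p = 0.0037), where 60% of genes were called. Tlr2, at 69.3 to 103 CPM and 50.7 to 92.7 CPM, overlapped (-0.34, adjusted p = 0.45). Without overlap 9 members were lower, where 35.5% of all genes were. The median log2 fold change was -1.29 over the members and -0.03 over all genes.

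In Bap1LysM cultures, with 3 BMM and 2 preOC libraries, Tlr8, Tlr5 and Tlr13 fell, where 38.9% of genes were called and 17.7% were called lower. Tlr8 went from 428, 275 and 306 CPM to 158 and 43.5 CPM (log2 fold change -1.74, SE 0.45, edgeR adjusted p = 0.012), and Tlr5 from 2.70, 4.68 and 3.78 CPM to 1.42 and 1.01 CPM (-1.60, SE 0.40, adjusted p = 0.010). Tlr13 went from 583, 391 and 338 CPM to 299 and 94.2 CPM (-1.15, SE 0.40, adjusted p = 0.044). The preOC libraries differed from each other in all 3, and number 1 was the higher each time.

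Tlr7 went from 408, 311 and 319 CPM to 247 and 71.6 CPM without passing the test (log2 fold change -1.12, SE 0.42, edgeR adjusted p = 0.057). With the replicate number as a block, where 34.6% of genes were called, Tlr7 (adjusted p = 0.012), Tlr4 (0.017) and Tlr3 (0.048) were added to the 3. Tlr9 was at 31.2, 18.5 and 31.9 CPM in BMMs and at 37.3 and 13.8 CPM in preOCs, 1 on either side (-0.09, SE 0.39, adjusted p = 0.88). Tlr2 was at 0.39 (adjusted p = 0.48). This comparison rests on Bap1LysM preOCs 1 and 2, the library with high Lyz2 and the one with the lowest receptor levels. Their osteoclast markers summed to 6064 and 16378 CPM, the lowest and the highest of all preOCs. Without Bap1LysM preOC 1, where 22.1% of genes were called lower, 7 members were, among them Tlr8 at -2.95, Tlr7 at -2.27 and Tlr13 at -2.21, and Tlr9 was at -0.97 (edgeR adjusted p = 0.054). Without Bap1LysM preOC 2, where 10.3% of genes were called lower, Tlr8 alone was (-1.09). Without Bap1LysM BMM 1, Tlr13 was at -0.89 and lost its call (edgeR adjusted p = 0.12). Without Bap1LysM preOC 1 and Bap1LysM BMM 1 together, a setting chosen after seeing the data, 8 were, beside 21.7% of genes. The median over the members was -0.68, against 0.01 over all genes.

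**Figure D5:**
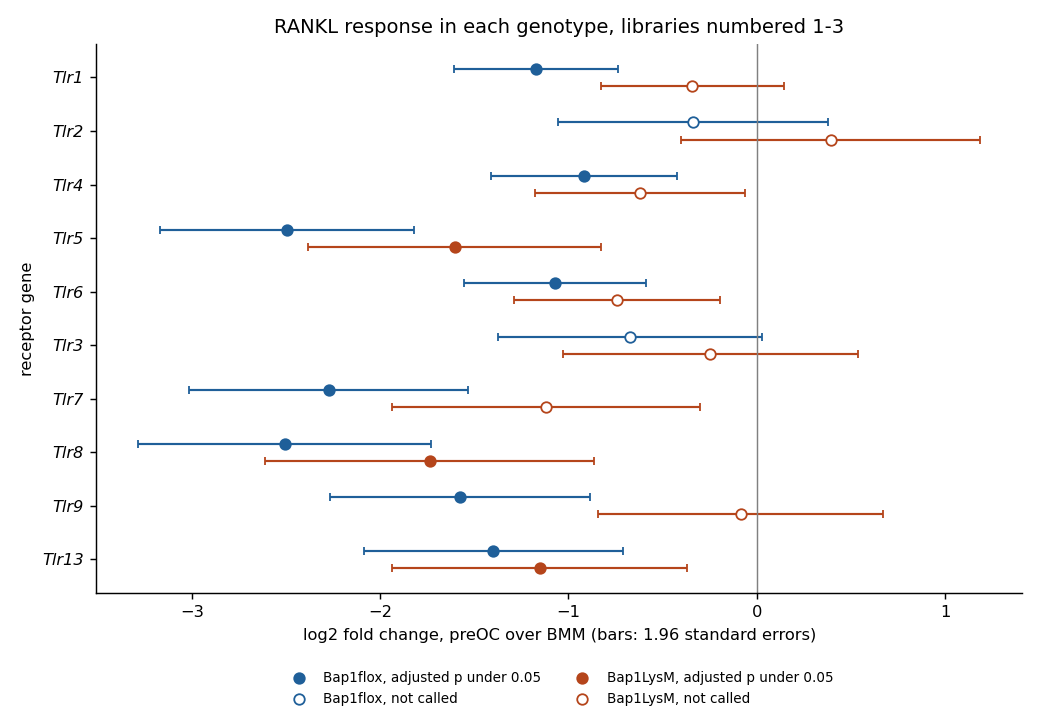
Log2 fold change of each receptor with RANKL, preOC over BMM in replicates 1 to 3, in Bap1flox and in Bap1LysM cultures, with bars of 1.96 SE. Filled points have an edgeR adjusted p under 0.05. Tlr9 stands at -1.58 in Bap1flox and at -0.09 in Bap1LysM cultures.

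Whether the RANKL response differed between the genotypes was tested directly by the interaction term. No gene of 13635 passed the adjusted p in edgeR, while 12.6% had an unadjusted p under 0.05. DESeq2 called 0.829% of genes, none of them a member, and voomWithQualityWeights none. Tlr9 had an interaction of 1.49 on the log2 scale (SE 0.51, edgeR unadjusted p = 0.016, adjusted p = 0.35), Tlr1 of 0.83 (SE 0.33, unadjusted p = 0.030, adjusted p = 0.36) and Tlr7 of 1.16 (SE 0.54, unadjusted p = 0.057, adjusted p = 0.41). Tlr9 thus responded to RANKL by -1.58 in Bap1flox and -0.09 in Bap1LysM cultures without the difference passing the test. With Bap1LysM preOC 2 left out Tlr1 and Tlr7 passed (adjusted p = 0.041 each), and with all 17 libraries in a single fit Tlr9 passed (adjusted p = 0.031). With Bap1LysM preOC 1 left out the interaction was 0.60 for Tlr9 (edgeR adjusted p = 0.51), 0.22 for Tlr1 (0.64) and 0.0049 for Tlr7 (0.997). The median interaction over the members was 0.75, and it was -0.14 with Bap1LysM preOC 1 left out.

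The genes around the receptors were read in Bap1flox cultures beside all genes tested there, of which 58.1% were called with RANKL and 28.7% were called lower. Of 6 co-receptors and ligand handlers 5 fell, led by Lbp (log2 fold change -4.24), Ly86 (-2.55), the partner of the related receptor Cd180, and Cd36 (-2.10). Of 9 chaperones and processing enzymes 6 fell, among them the proteases Lgmn (-2.37) and Ctsb (-1.89) and the carrier Unc93b1 (-1.45, SE 0.22, edgeR adjusted p = 3.8e-04). Of 6 adaptors tested Ticam2 (-1.56) and Ticam1 (-0.36) fell. The list medians were -1.56, -0.54 and -0.25. Of 16 kinases and ubiquitin ligases 7 fell, led by Ikbke (-1.13), Irak4 (-0.83) and Ripk1 (-0.56), and Traf3 (1.35) and Traf6 (0.30), the latter a transducer of RANK signals as well, rose.

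The regulators and targets, read beside the same shares of all genes, went both ways. Of 9 transcription factors Nfkb2 (1.64), Relb (0.84) and Nfkb1 (0.34) rose and Irf8 (-2.10) and Rela (-0.34) fell in Bap1flox cultures. Of 10 negative regulators 4 rose, led by Tnfaip3 (1.96), Nfkbia (1.87) and Tnip1 (1.33), and 3 fell, which were Irak3 (-1.39), Rnf216 (-0.45) and Tollip (-0.23). Of 11 target genes tested 4 rose, led by Nos2 (6.11), Acod1 (3.02) and Cxcl10 (2.90), and 4 fell, led by Marco (-2.96), Il10 (-1.87) and Ccl4 (-1.76). Nos2 was near the floor before RANKL, with 0 to 4 counts per library in Bap1flox BMMs and 2 to 8 in Bap1LysM BMMs. In Bap1LysM cultures, tested against their own BMMs, Lbp (-3.04), Ly86 (-2.57), Cd36 (-1.78), Lgmn (-2.09), Ctsb (-1.41), Ticam2 (-0.96) and Irf8 (-1.54) also fell and Nfkb2 (1.73), Tnfaip3 (1.81) and Nos2 (5.68) rose. All 10 osteoclast markers rose with RANKL in both genotypes, and of 8 macrophage markers 7 fell in Bap1flox and 6 in Bap1LysM cultures. Ccr2, a monocyte marker, fell by 3.71 and by 3.84 on the log2 scale.

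The genes whose levels were most like those of the 4 receptors called in preOCs were sought by Pearson correlation of log2 CPM over the 17 libraries, among 13731 genes. These correlations share the libraries, their groups and their depth, and are given without a test. Tlr7 was closest to Tlr8 (0.977), followed by Dock2 (0.976) and Ncf1 (0.976), a subunit of the phagocyte oxidase. Tlr8 was closest to Lgals8 (0.985), Zscan29 (0.980) and Ctso (0.979). Tlr9 was closest to Pfkfb3 (0.965), Aif1 (0.937) and Abca1 (0.915), and Tlr2 to Lpcat2 (0.874), Hcls1 (0.852) and Arl5c (0.830). Among the members the highest correlations after that of Tlr7 and Tlr8 were 0.941 between Tlr1 and Tlr6, which share some sequence, 0.926 between Tlr4 and Tlr8 and 0.921 between Tlr4 and Tlr7. The lowest was 0.108, between Tlr2 and Tlr13.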

How the data were processed

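RNA was sequenced from oligo-dT libraries as paired reads. The authors aligned the reads with STAR 2.5.1a to the Ensembl GRCm38 assembly and counted unique, unambiguous reads per gene with featureCounts 1.4.6-p5. Whether strand was used is not given in the sources used here. The counts were deposited without normalization, next to deposited CPM (count over library total) and RPKM (CPM over gene length) columns, both checked to follow from the counts. Only the counts were tested. Of counts from 1 to 20, 69.5% were even. Symbols were matched for 40254 of 41388 identifiers, and 355 ribosomal RNA genes were left out.

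Genotypes and cultures were compared with edgeR 4.0.16 (R 4.3.3), TMM factors and the quasi-likelihood test, with Benjamini-Hochberg adjustment over all genes tested and a threshold of 0.05. A gene was tested where its CPM exceeded 1 in 4 or more of the 11 preOC libraries, 2 of 6 BMM libraries or 2 of the 11 libraries of replicates 1 to 3, which gave the RANKL responses in a single fit with 4 group means. Log2 CPM used a prior count of 2. An SE is on the log2 scale and intervals are 1.96 SE wide on either side. The coefficient of variation between libraries, as edgeR estimates it, was 0.274 in preOCs, 0.207 in BMMs and 0.21 in replicates 1 to 3, so the spread between libraries more than the depth set the precision. Alternatives were voomWithQualityWeights of limma 3.58.1, DESeq2 1.42.0, RLE and upper-quartile factors, no filter, a CPM above 0.3, 1 fit of all 17 libraries, a term for the library set, both sets apart, a block for the replicate number and each library left out. On simulated counts, of genes changed by 1 on the log2 scale, the fit recovered 98% among 12919 preOC genes, 58% among 13028 BMM genes and 17% for the interaction among 13635 genes. These counts gave every gene the same spread, with no set difference and no outlying library, so the shares may not hold for the data.

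Named were all 10 receptors, Bap1, Lyz2, up to 3 called genes per pathway list, comparison and direction, genes of the marker lists and the 3 genes most correlated with each receptor called in preOCs. Members, lists and comparisons were chosen with earlier results of these data known. Same-numbered libraries deviated from their group means together, with correlations of 0.34 to 0.69 in preOCs (-0.14 to 0.40 with library set means removed), 0.30 to 0.49 between BMM genotypes, 0.22 to 0.36 between Bap1flox BMMs and preOCs and 0.34 to 0.48 between Bap1LysM BMMs and preOCs. The labels do not state what a number marks. Promoters and motifs were read in python 3.11.15 with numpy 2.4.6 and pandas 2.3.3, and figures drawn with matplotlib 3.10.9.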

Additional observations from a re-analysis of the deposited data

Results flagged for a closer look

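Among 20 combinations of a receptor and a preOC group, where chance gives about 1 in 20, 7 had a library far from the rest of its group by Dixon's gap. Bap1flox preOC 6 was the highest of its group for Tlr1 (31.4 CPM against 15.5 to 19.97 in the others), Tlr6 (15.7 against 7.07 to 9.97), Tlr7 (96.7 against 38.4 to 57.7), Tlr8 (95.7 against 30.9 to 53.3) and Tlr13 (209 against 109 to 134 CPM). Bap1LysM preOC 2 was the lowest of its group for Tlr7 (71.6 against 220.5 to 247 CPM) and Tlr8 (43.5 against 145 to 171 CPM). Both libraries draw the genotypes together, and leaving out Bap1flox preOC 6 gave log2 fold changes of 2.02 for Tlr7 and 1.70 for Tlr8, with 5 members called higher by edgeR, where 7.58% of all genes were.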

How the results depend on the processing

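In preOCs 4 members were called higher, where 7.12% of genes were. Under voomWithQualityWeights 8 were, where 26.8% of genes were called higher. Replicates 1 to 3 alone gave 0, as they did over all genes. The fit without Bap1LysM preOC 1 and 2 together, chosen after seeing the data, gave 7, where 18.7% of genes were called higher. Leaving out 1 library gave 2 (without Bap1LysM preOC 4 or 5) to 6, and 3.45% to 10.6% of genes higher. In BMMs 1 was called, where 5.32% of genes were. The fits by voomWithQualityWeights, by DESeq2 and with no filter each gave 3, with 2 higher and 1 lower. Of all genes they called 5.53%, 6.75% and 0.83% higher and 8.07%, 9.1% and 2.29% lower. The replicate block gave 4, where 16.2% of genes were called, and leaving out 1 library 0 to 1. For RANKL in Bap1LysM 3 were called lower, where 17.7% of genes were. DESeq2 and upper-quartile factors each gave 5, where 21.5% and 18.6% of genes were called lower. The replicate block gave 6, where 17.2% were. The fit without Bap1LysM preOC 1 and BMM 1, chosen after seeing the data, gave 8, where 21.7% were. Leaving out 1 library gave 1 to 7, where 10.3% to 22.1% were. The interaction went from 0 to 1 with all 17 libraries and 0 to 2 with 1 left out. The RANKL response in Bap1flox stayed within 8 to 10, where 14.4% to 38.6% of genes were called lower. Over all genes, preOC calls went from 2040 to 7093 with voomWithQualityWeights, 4236 with the block, 4345 with the set as a term, 4282 in replicates 4 to 6, 0 in replicates 1 to 3, 5122 without Bap1LysM preOC 1 and 2, and 1067 to 3072 with 1 library left out. BMM calls went from 693 to 1772, 2065 (DESeq2) and 2107 (block), and 4 to 756 with 1 left out. Calls for RANKL in Bap1LysM went from 5307 to 2934 with voomWithQualityWeights and 3145 without Bap1LysM preOC 2, and interaction calls from 0 to 113 with DESeq2, 288 with all 17 libraries and 119 without Bap1LysM preOC 2. Plain CPM put Tlr13 in Bap1flox BMMs at 303.66 in place of 311.9 CPM.

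Some estimates changed sign. In preOCs Tlr5 was at -0.41 in replicates 1 to 3, Tlr13 at -0.054 in replicates 4 to 6 and at -0.029 to 0.47 with 1 library left out. In BMMs the ranges with 1 left out were -0.45 to 0.075 for Tlr2, -0.25 to 0.41 for Tlr3 and -0.21 to 0.0030 for Tlr6. For RANKL in Bap1LysM they were -0.95 to 0.083 for Tlr1, -0.32 to 0.87 for Tlr2, -1.04 to 0.26 for Tlr3 and -0.97 to 0.46 for Tlr9, which was at 0.24 with all 17 libraries, and Tlr2 was at -0.55 without Bap1LysM preOC 1 and BMM 1. For the interaction they were -0.37 to 0.93 for Tlr3, -0.28 to 0.70 for Tlr4, -0.37 to 0.79 for Tlr6, -0.44 to 1.42 for Tlr8 and -0.81 to 0.85 for Tlr13. Without Bap1LysM preOC 1 and BMM 1 it was -0.21 for Tlr2, -0.14 for Tlr4, -0.39 for Tlr6, -0.23 for Tlr8 and -0.55 for Tlr13, which was at -0.16 with all 17 libraries and -0.10 with the replicate block. No receptor called in the comparison concerned changed sign there. The cause of these shifts was not tested. The replicate block changed no other call than those given beside the results. Depth limits Tlr5 most, with 41 to 594 counts per library.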
